A study of Mus musculus with 192 samples.

Results

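The proteasome genes of the table were taken as all rows whose symbol starts with Psma, Psmb, Psmc, Psmd or Psme followed by a number, with at least as many counts in all as there are libraries, an average of 1 count per library. The rule gave 42 of 23481 genes. Of 43 symbols with such a name, Psma8 (14 counts in all) fell outside, and Psmb11 (401), Psmd9 (450) and Psmd5 (543) were the members just inside. The 42 genes were 7 of the 20S alpha ring, 3 constitutive catalytic beta subunits (Psmb5, Psmb6, Psmb7), 3 inducible catalytic beta subunits (Psmb8, Psmb9, Psmb10), Psmb11, 4 other beta subunits, 6 ATPases and 14 other genes of the 19S cap, and 4 activators (Psme1 to Psme4). A filter on low counts left 39 of them for testing, among 4720 tested genes, and removed Psmb11, Psmd5 and Psmd9. Psmb8, Psmb9, Psmb10, Psme1 and Psme2 are called the inducible subunits below, and the 34 other tested members were set against them.

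As background, the proteasome degrades ubiquitin-tagged proteins inside a barrel of stacked rings, the 20S core, whose beta rings hold the proteolytic sites. The 19S cap recognises and unfolds substrates, with the Psmc products as ATPases. Interferon exchanges the catalytic subunits: the products of Psmb8, Psmb9 and Psmb10 (LMP7, LMP2 and MECL-1) replace those of Psmb5, Psmb6 and Psmb7 in newly assembled immunoproteasomes. The products of Psme1 and Psme2 (PA28 alpha and beta) form a separate cap that interferon also induces. In dendritic cells, immunoproteasomes cut proteins into peptides that are loaded onto class I major histocompatibility complex (MHC) molecules for display to T cells.

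The cells were bone marrow-derived dendritic cells (BMDCs) of female C57BL/6J mice aged 6 to 8 weeks, grown with 15 ng/mL of the growth factor GM-CSF and plated at 100000 cells per well. The exposure lasted 6 hours, and each ligand engages pattern recognition receptors, which sense microbial components. The labels name the ligands PAM, LPS (lipopolysaccharide), HMW, Zymosan (labelled as depleted), SeV, cGAMP (3',3'-cGAMP, a cyclic dinucleotide) and CpGB, and give no dose. The groups were Ctrl (control), 7 single ligands, 21 pairs and 35 triplets, each with 3 libraries, and all 64 groups shared the strain, the GM-CSF culture and the exposure time. The labels do not say whether the 3 libraries came from separate cultures or mice, so p-values measure the spread between these libraries, which may be technical.

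Total counts of unique molecular identifiers (UMIs, which mark single cDNA molecules) ran from 46564 to 610234 per library, with 61823 to 89530 in Ctrl. Values are CPM, the counts per 1000000 UMIs of the library after scaling of its size, and levels are compared between groups for a gene, not between genes. The cells carried the dendritic markers that the labels imply only in part. MHC class II genes and Itgax (CD11c) were present (H2-Aa 2126 and Itgax 421 CPM in Ctrl), but Zbtb46 and Flt3, which mark conventional dendritic cells, had 99 and 95 counts over all libraries. The summed level of 7 macrophage markers was highest in Ctrl (12582 CPM) and lowest with LPS + Zymosan + cGAMP (6989 CPM). Lyz2 made up 9450.1 CPM of the Ctrl sum, and Fcgr1 and Mertk were lower in Ctrl (60.7 and 0 CPM) than in the median group (296 and 5.99). In these bulk samples, fewer cells of a type and less RNA per cell cannot be told apart, and the part of cell composition in the results was not tested. The summed level of 12 dendritic markers was lowest in Ctrl (6546 CPM) and highest with PAM + HMW + SeV (9532 CPM), although Itgax was higher in Ctrl (421 CPM) than in the median group (294), and that of 7 neutrophil markers ran from 519.9 to 961 CPM. All 5 red blood cell markers and 3 of 5 natural killer cell markers (Eomes, Gzma, Prf1) had 0 counts, the 6 T cell markers summed to at most 5.00 CPM in any group, and Ifng, the gene of interferon gamma, had 1 count in all.

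In the GENCODE M21 annotation of GRCm38, the build of mm10, Psmb8 (chr17:34197721-34201454) and Psmb9 (chr17:34181987-34187764) lie in the MHC region of chromosome 17 beside Tap1 and Tap2. The annotated models of Psmb9 and Tap1 overlap on opposite strands, as do those of Psme1 and Emc9 and those of Psmb8 and Psmb10 with the antisense genes Gm20496 and Gm16156. Whether counting used the strand is not given in the sources used here, so reads of such partners cannot be told apart in the overlap. Psme1 (chr14:55578123-55581529) and Psme2 (chr14:55587441-55591113) lie on chromosome 14 and Psmb10 (chr8:105935735-105938444) on chromosome 8. Promoters are shown because the inducible subunits rose together with several ligands in these data. RefSeq promoters (GRCm38.p6, 250 bases before to 50 after the start) were matched for 36 of the 42 members. Only the 250 bases before the start were searched, on both strands, for 3 motifs. These were the core of the interferon-stimulated response element (GAAA, any 2 bases, GAAA), TTCNNNGAA (the gamma-activated site) and TGACNNNGC, the core of the antioxidant response element. Of all promoters, 2.98%, 7.02% and 10.2% held them. The 6 promoters of the 5 inducible subunits held 0, 1 and 0, and the 33 promoters of 31 other subunits 3, 0 and 5.

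The match in an inducible subunit was the TTCNNNGAA of Psmb8, and both Psmb5 and Psmb6 held TGACNNNGC. Capitals mark the match in the 30-base windows from RefSeq, given 5′ to 3′ in the direction of the gene. The windows are at chr17:34198087-34198116 for Psmb8 (plus strand, match 97 to 89 bases before the RefSeq start), chr14:54618024-54618053 for Psmb5 (minus strand, match 47 to 39 bases before) and chr11:70525327-70525356 for Psmb6 (plus strand, match 9 to 1 bases before). In the GENCODE annotation, all 250 bases before the RefSeq start of Psmb8, and with them this match, lie in annotated exons of Psmb8. So do all 250 of Psmb9 (in exons of Psmb9 and Tap1) and 139 of Psme1, so the counts over inducible promoters rest in large part on exon sequence. The upstream bases of Psme2 (chr14:55591114-55591351, minus strand) and Psmb10 (chr8:105938445-105938642, minus strand) that no annotated exon covers are given with them, as examples of inducible promoters where these letters were not found.
Psmb8: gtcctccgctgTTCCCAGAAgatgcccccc
Psmb5: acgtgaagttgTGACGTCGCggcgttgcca
Psmb6: acagaggcggactaaagagagTGACGGAGC
Psme2: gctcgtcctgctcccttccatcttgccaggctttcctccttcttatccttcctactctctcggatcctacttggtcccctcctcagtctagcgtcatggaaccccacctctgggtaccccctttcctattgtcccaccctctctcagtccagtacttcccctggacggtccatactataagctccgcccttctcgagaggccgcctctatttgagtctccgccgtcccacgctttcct
Psmb10: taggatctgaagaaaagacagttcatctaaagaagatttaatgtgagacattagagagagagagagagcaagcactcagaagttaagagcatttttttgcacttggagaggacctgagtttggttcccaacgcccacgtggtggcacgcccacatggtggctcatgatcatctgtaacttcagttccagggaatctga

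A match is a description of letters in this window, and the data measure no binding. Sequence farther upstream and sequence after the start were not searched.

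The question of the single-ligand groups was which ligand alone changed which subunit. Of the ligands, LPS gave the highest mean level of each of the 5 inducible subunits, and the catalytic ones rose 4.41- to 4.93-fold. Psmb8, which replaces Psmb5, was at 111, 112 and 163 CPM in the 3 Ctrl libraries and at 596, 615 and 577 with LPS (log2 fold change 2.17, SE 0.22, adjusted p = 1.21e-17, Benjamini-Hochberg adjustment of edgeR's quasi-likelihood p-values). It was at 554, 475 and 450.3 CPM with SeV, 495, 339 and 387 with cGAMP and 349, 439 and 415 with CpGB. All 12 of these libraries lay above all 3 Ctrl libraries. With PAM it reached 243, 191 and 239 CPM, a smaller rise whose libraries also lay above Ctrl (log2 fold change 0.75, SE 0.26, adjusted p = 0.0355). This call was lost without Ctrl replicate 1 or 2 (adjusted p = 0.122 and 0.126) and without PAM replicate 1 or 3 (adjusted p = 0.0687 and 0.0951). With HMW the values were 183, 247 and 209 CPM, above Ctrl in each library but not past the test (adjusted p = 0.242), and with Zymosan they were 129, 211 and 112, which overlapped Ctrl.

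Psmb10, which replaces Psmb7, was at 166, 149.7 and 125 CPM in Ctrl and at 588, 615 and 702 with LPS (log2 fold change 2.14, SE 0.24, adjusted p = 3.44e-15). SeV gave 621, 514 and 408 CPM, cGAMP 458, 321 and 497 and CpGB 427, 434 and 406, all above the Ctrl libraries. PAM gave 138, 256 and 250.02 CPM, HMW 199.6, 184 and 153 and Zymosan 147, 173 and 117, and these 3 groups overlapped Ctrl and did not pass the test (log2 fold changes 0.60, 0.28 and -0.02). Without PAM replicate 1, Psmb10 was called with PAM (0.84, adjusted p = 0.0298). Psmb9, which replaces Psmb6, was counted least deeply of the inducible subunits, with 5, 2 and 4 UMIs in the Ctrl libraries. It was at 69.3, 24.9 and 38.4 CPM in Ctrl, 179, 244 and 215 with LPS (log2 fold change 2.30, SE 0.39, adjusted p = 1.94e-07), 156, 146 and 110.5 with cGAMP and 116, 107 and 96.8 with CpGB. Each of those libraries lay above Ctrl. The call with cGAMP was lost at equal depth, with every library thinned to the lowest total (log2 fold change 1.47, adjusted p = 0.0774) and without replicate 2 of all groups (1.41, adjusted p = 0.0519). With SeV it was at 47.8, 191.61 and 93.8 CPM, where 1 library fell within the Ctrl range (log2 fold change 1.37, SE 0.45, adjusted p = 0.0186), and with Zymosan at 9.20, 32 and 28 (log2 fold change -0.77, adjusted p = 0.534). The call of Psmb9 with SeV was lost without SeV replicate 2 (log2 fold change 0.90, adjusted p = 0.25) and without Ctrl replicate 2 or 3 (adjusted p = 0.0926 and 0.0782). That with CpGB was lost without Ctrl replicate 2 or 3 (adjusted p = 0.0949 and 0.0862). With DESeq2 neither was called (adjusted p = 0.0658 and 0.0787).

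The 2 genes of the PA28 cap did not share one pattern. Psme2, for PA28 beta, was raised by all 7 ligands, although the call with HMW was lost without replicate 2 or 3 of all groups (adjusted p = 0.0872 and 0.112). It was at 208, 199.6 and 192.03 CPM in Ctrl, 1251, 1363 and 1159 with LPS, 1029, 939 and 968 with CpGB and 892, 654 and 789 with PAM. It was at 569, 491 and 626 CPM with cGAMP, 573, 567 and 474 with SeV, 414, 544 and 429 with Zymosan and 366, 404 and 381 with HMW. No ligand library came as low as any Ctrl library, and the log2 fold changes ran from 0.95 with HMW (SE 0.22, adjusted p = 0.0034) to 2.65 with LPS (SE 0.19, adjusted p = 1.68e-30). Psme1, for PA28 alpha, was at 83.1, 125 and 96.0 CPM in Ctrl and at 349.9, 360.2 and 340.1 with LPS (log2 fold change 1.78, SE 0.28, adjusted p = 2.14e-08). CpGB, cGAMP and SeV raised it to means of 253, 227 and 219.9 CPM. At equal depth its calls with SeV (log2 fold change 0.42, adjusted p = 0.516) and cGAMP (0.84, adjusted p = 0.111) were lost, and that with SeV also without replicate 3 of all groups (adjusted p = 0.144). PAM left it at 118, 101 and 128 CPM, which overlapped Ctrl (log2 fold change 0.18, adjusted p = 0.794). For the same PAM libraries, Psme2 had a log2 fold change of 1.96 (adjusted p = 3.33e-17).

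**Figure D1:**
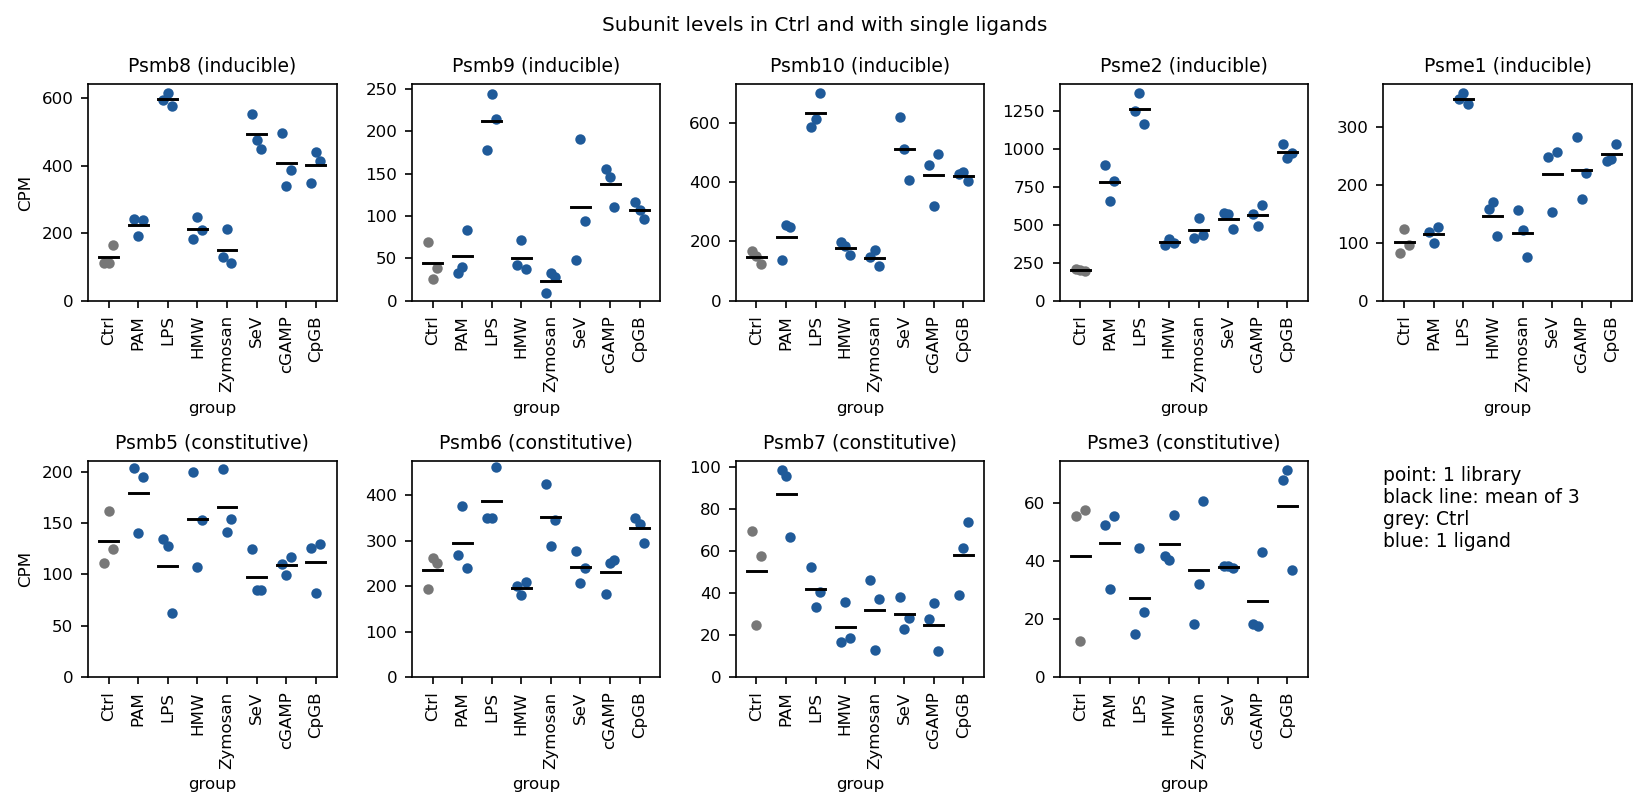
CPM (vertical axis, linear from 0) of the 5 inducible subunits and of Psmb5, Psmb6, Psmb7 and Psme3 in Ctrl and with each single ligand, with 1 point per library and a line at the mean of 3. All libraries with LPS, SeV, cGAMP and CpGB stand above Ctrl for Psmb8 and Psmb10. For Psmb9 those with LPS, cGAMP and CpGB do, and 1 SeV library lies within the Ctrl range. All 7 ligands stand above Ctrl for Psme2.

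The single ligands were also set against each other, over 21 pairs of ligands for 9 genes; 18.8% of such tests were called over all genes. PAM and SeV differed in one direction for Psme2 and in the other for the remaining inducible subunits. Psmb8, Psmb9, Psmb10 and Psme1 were lower with PAM than with SeV, for example Psmb10 (log2 difference -1.19, SE 0.19, adjusted p = 6.13e-08), whereas Psme2 was higher with PAM (log2 difference 0.54, SE 0.15, adjusted p = 0.00167). PAM and cGAMP differed likewise (log2 difference -1.35, SE 0.34, adjusted p = 0.00053 for Psmb9, and log2 difference 0.46, SE 0.15, adjusted p = 0.00699 for Psme2). In the order of mean levels of Psmb8 and Psmb10, the neighbours LPS and SeV, SeV and cGAMP, and cGAMP and CpGB were not told apart by the test. For Psmb8 the log2 difference between LPS and SeV was 0.29 (SE 0.15, adjusted p = 0.233). For Psme2 the order was LPS, CpGB, PAM, cGAMP, SeV, Zymosan and HMW, and of its neighbours PAM and cGAMP, and HMW and Ctrl, differed by the test.

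Of the 28 tests of the 4 counterparts with single ligands, 1 was called. Psmb5 was at 111, 162 and 125 CPM in Ctrl, and its single-ligand means ran from 97.7 with SeV to 179.5 with PAM, none past the test against Ctrl. Psmb7, at 69.3, 24.9 and 57.6 CPM in Ctrl from 5, 2 and 6 UMIs, ran from 23.7 with HMW to 86.9 with PAM, again with no call. Psmb6 gave the 1 call: it was at 194, 262 and 249.6 CPM in Ctrl and rose with LPS to 349.9, 349 and 461 (log2 fold change 0.72, SE 0.22, adjusted p = 0.00708), a call lost with library sizes alone (0.42), with DESeq2 (0.58), at equal depth (0.29, adjusted p = 0.473) and without replicate 3 of all groups (0.63, adjusted p = 0.138). Psme3, for the PA28 gamma cap of the nucleus, was at 55.4, 12.5 and 57.6 CPM in Ctrl from 4, 1 and 6 UMIs and was called with no single ligand. Over the 35 combinations of an inducible subunit with a single ligand, 24 were higher than Ctrl and 0 lower (also 0 at an unadjusted p under 0.05 with edgeR, and 0 with DESeq2), 22 of them at least 2-fold. Over all genes, 10.3% of such tests were higher, 8.7% at least 2-fold, and 6.84% were lower. The share of all genes called higher and the share called lower were 1.19% and 0.0212% with HMW, 6.23% and 2.86% with Zymosan, 9.68% and 7.78% with PAM and 12.2% and 7.25% with SeV. They were 12.5% and 8.92% with CpGB, 13.5% and 8.16% with cGAMP and 17.1% and 12.9% with LPS. For the 34 other subunits, 17 of 238 tests were higher and 1 was lower (Psmc3 with LPS, lost without any 1 of the Ctrl libraries), and 13 of the 17 belonged to Psma4, Psma5 and Psma6.

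Over all 63 ligand conditions, the inducible subunits were higher than Ctrl in 292 of 315 tests and lower in 0 (also 0 at an unadjusted p under 0.05 with edgeR, and 0 with DESeq2), against 16.5% higher and 11.8% lower over all genes. The other subunits were higher in 290 and lower in 32 of 2142 tests. The 32 lower calls were 3 without Ctrl replicate 3 and 19 without Ctrl replicate 1 or 2, and 63 with RLE factors and 51 with DESeq2. With library sizes alone in place of scaling factors, this split was 160 higher and 126 lower, and that of the inducible subunits 276 higher and 0 lower. That setting moved the median change of all genes from -0.05 to -0.42 on the log2 scale. Relative to that median, the median change of the inducible subunits was 1.83 with scaling factors and 1.82 without, and that of the other subunits 0.30 under both. Psme2 was called higher in 63 of 63 conditions, Psmb8 in 60, Psme1 in 59, Psmb10 in 58 and Psmb9 in 52. The 63 comparisons share the 3 Ctrl libraries, so these counts are not independent of each other. Without each Ctrl library in turn, an alternative added after the data were seen, Psme2 stayed at 63, Psmb8 gave 59 to 60, Psmb10 56 to 58, Psme1 56 to 59 and Psmb9 46 to 53. The UMIs of the inducible subunits made up 0.0723% ± 0.00182 (SD, n = 3) of all UMIs in Ctrl, the lowest of the 64 groups, and 0.301% ± 0.0110 with LPS alone, the highest.

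The groups were then split by their labels into the 7 that held PAM, HMW or Zymosan and no other ligand, and the 56 that held LPS, SeV, cGAMP or CpGB. This split was chosen after the levels were seen and is given as a description. Psmb8 had group means of 151 to 387 CPM (median 224) in the 7 groups and 336 to 647 CPM (median 493) in the 56, with 129 in Ctrl. Psmb9 ran over 23.1 to 84.5 CPM (median 52.1) and 67.5 to 229 CPM (median 143), with 44.2 in Ctrl. Psmb10 ran over 115 to 326 CPM (median 209.7) and 251 to 723 CPM (median 520.4). The 2 ranges of each gene overlapped. PAM + HMW + Zymosan gave the highest means of the 7 groups for the 3 catalytic subunits (387, 84.5 and 326 CPM), although no single ligand of that triplet was past 2-fold for any of them. Psme2 ran over 384 to 974 CPM (median 562) and 538 to 1319 CPM (median 977), with 199.8 in Ctrl.

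At the lower end, PAM + Zymosan gave the lowest mean of the 21 pairs for Psmb8, Psmb9, Psmb10 and Psme1. Psmb9 was at 0, 29.5 and 44.9 CPM there, Psmb10 at 73.7, 147 and 125, Psmb8 at 211, 184 and 185 and Psme1 at 84.2, 155 and 145. None of the 4 was called against Ctrl, where 10.4% of all genes were called higher, and the means of Psmb9 and Psmb10 were below those of Ctrl. Psme2 was at 579, 597 and 509 CPM in the same libraries, each above 208, the highest Ctrl library. PAM + CpGB gave 315, 289 and 232 CPM of Psmb10, all below the 3 libraries with CpGB alone (427, 434 and 406). For Psmb9, PAM + CpGB gave 47.7, 66.6 and 88 CPM, against 116, 107 and 96.8 with CpGB alone. The highest groups held LPS: LPS + HMW for Psmb8 (647 ± 15.9 CPM, SD, n = 3), LPS + SeV for Psmb10 (723 ± 73.9) and PAM + LPS + SeV for Psmb9 (229 ± 46.9), Psme1 (399 ± 17.5) and Psme2 (1319 ± 214).

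**Figure D2:**
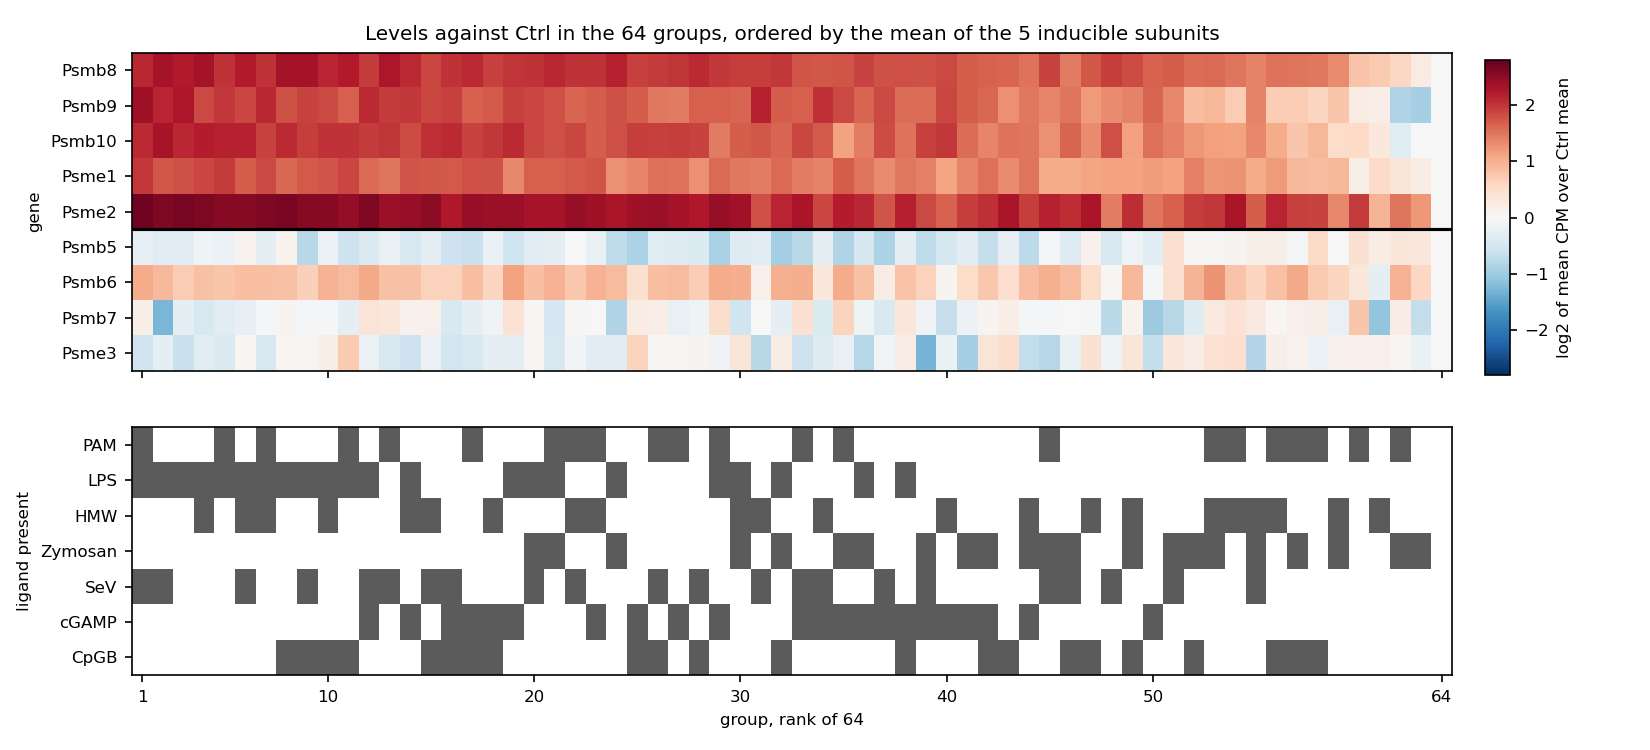
Log2 of the mean CPM over the Ctrl mean (colour) of the 5 inducible subunits and their 4 counterparts (rows, upper part) in the 64 groups (columns, ordered by the mean over the inducible subunits), and the ligands of each group (dark, lower part). The inducible rows are red in nearly every column and the first 12 columns all hold LPS, while the counterpart rows hold both colours, with Psmb6 red in most columns and Psmb7 and Psme3 blue in some.

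A second comparison used no single group as its base. For each ligand, the 22 groups that hold it were compared with the 22 groups that hold the same other ligands without it, 66 libraries against 66, and the mean of the 22 log2 differences was tested. Here the inducible subunits rose in 27 and fell in 3 of 35 tests, against 21.1% higher and 19.2% lower over all genes. The 34 other subunits rose in 53 and fell in 23 of 238 tests, a share of 22.3% higher that is near that of all genes, and the direction of this split depended on the scaling: 41 rose and 33 fell with RLE factors, another estimate of the scaling, and 26 and 59 with library sizes alone. The median change of all genes was -0.02, -0.05 and -0.11 under the 3 scalings, and the median change of the other subunits relative to it was 0.05 under each. LPS raised all 5 inducible subunits (29.6% of all genes were higher and 29.3% lower), by 0.62 for Psmb8, the inducible subunit with the TTCNNNGAA match, to 0.82 (SE 0.07, adjusted p = 3.08e-26) for Psmb9. SeV (20.6% of genes higher and 16.7% lower), cGAMP (28.2% and 29.7%) and CpGB (19% and 17.7%) also raised all 5. With SeV the changes ran from 0.26 for Psme2 to 0.65 for Psmb9, with cGAMP from 0.22 for Psme2 to 0.61 for Psmb9, and with CpGB from 0.20 for Psmb9 to 0.41 for Psme2. Psmb9 and Psme2 thus stood at opposite ends, in 1 order for SeV and cGAMP and in the reverse for CpGB; that difference in order was not tested.

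PAM raised Psme2 by 0.37 (SE 0.03, adjusted p = 7.41e-26) and Psme1 by 0.21 (SE 0.05, adjusted p = 4.32e-05), where 21.2% of all genes rose and 18.7% fell. Psmb8 was called at 0.09, which was -0.03 with library sizes alone. Psmb9 and Psmb10 were at -0.02 and -0.03 and not called, and with library sizes alone Psmb10 was called lower (-0.15, adjusted p = 0.000428). HMW raised 4 of the 5 (7.94% of all genes rose and 2.1% fell), with Psme1 the most at 0.26 (SE 0.05, adjusted p = 3.38e-06). The fifth, Psmb10 (0.10), was called with no filter (0.15, adjusted p = 0.0124) and without replicate 1 of all groups (0.16, adjusted p = 0.00893). With these scaling factors Zymosan was the ligand on whose addition inducible subunits fell (20.4% of all genes were lower and 21.3% higher). Psmb10 fell by 0.33 on the log2 scale (SE 0.04, adjusted p = 4.92e-13), with the libraries of 11 backgrounds wholly below and those of 0 wholly above. Psmb9 fell by 0.19 (adjusted p = 0.0192) and Psmb8 by 0.14 (adjusted p = 0.000671), while Psme1 (-0.02) and Psme2 (-0.07) did not pass. Psme2 was called lower with RLE factors (-0.09, adjusted p = 0.0124), with library sizes alone (-0.12, adjusted p = 0.000699) and with DESeq2 (-0.09, adjusted p = 0.0151). The calls of Psmb9 with CpGB, HMW and Zymosan, of Psmb8 with PAM and HMW, of Psme1 with PAM and of Psme2 with cGAMP were each lost under at least 1 alternative, by other scaling, no filter, equal depth or leaving out 1 replicate of all groups. For Psmb9 with Zymosan the change was -0.17 (adjusted p = 0.1) with no filter, and for Psme1 with PAM 0.09 (adjusted p = 0.109) with library sizes alone. None of these 35 mean changes reached 2-fold. The range over backgrounds, in differences of the mean log2 CPM with a prior count of 2 and not in fitted changes, was wide, for example -0.19 to 2.58 for LPS and Psme2, with the highest value in the Ctrl background.

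**Figure D3:**
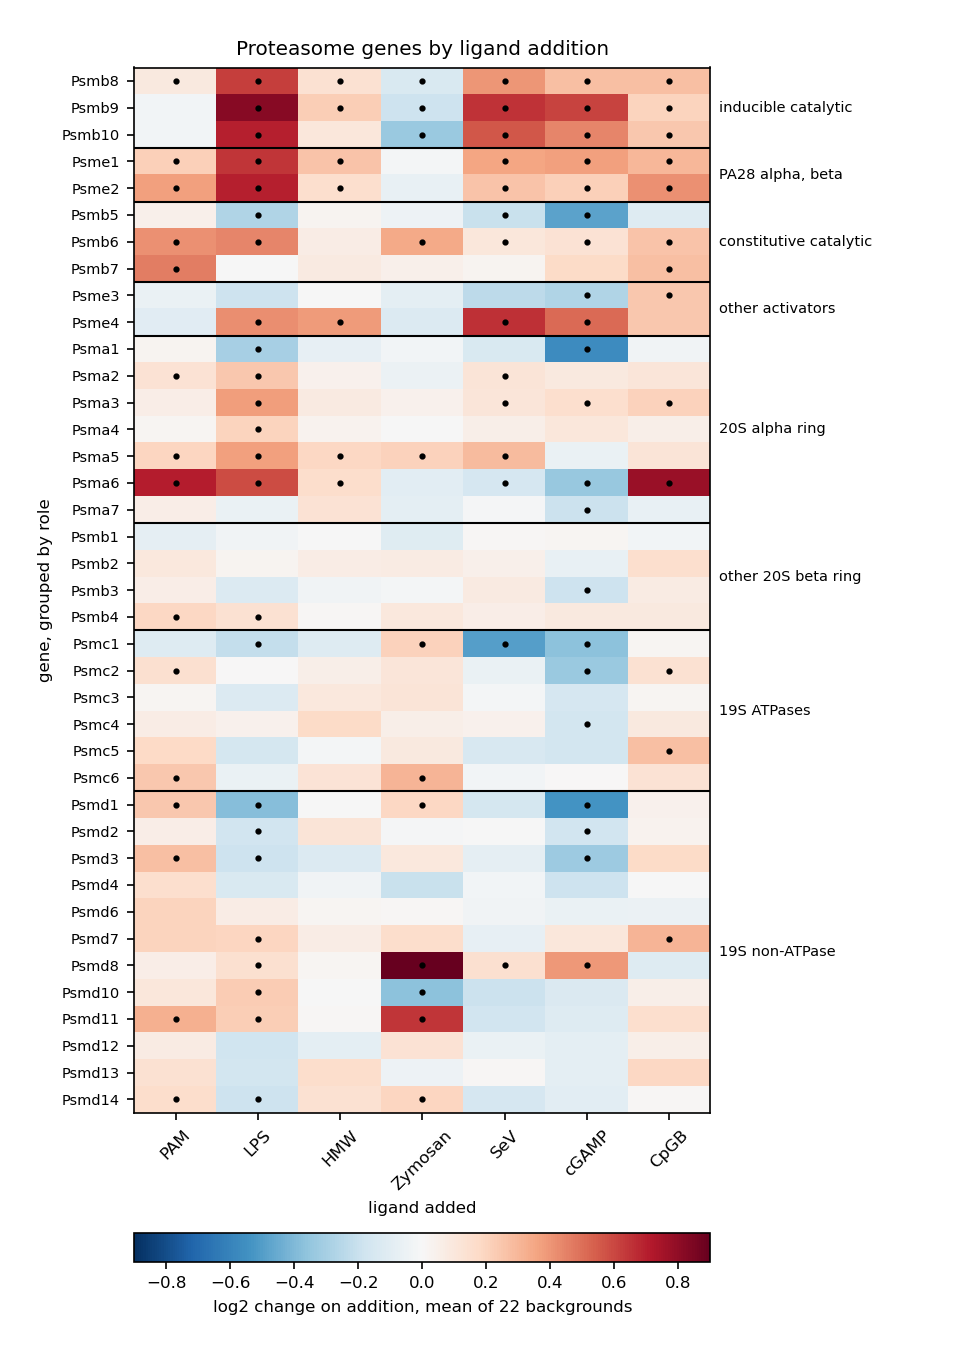
Log2 change on addition of each ligand (columns; colour, mean over 22 backgrounds) for the 39 tested proteasome genes (rows, grouped by role); a dot marks an adjusted p under 0.05. The 5 inducible rows at the top are red for LPS, SeV, cGAMP and CpGB, and 3 of them are blue for Zymosan, while Psma6, Psmd8, Psme4 and Psmb5 show other patterns.

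The constitutive catalytic subunits differed among themselves on addition. Psmb5, whose promoter window with TGACNNNGC is shown above and whose product that of Psmb8 replaces, fell with cGAMP by 0.48 (SE 0.06, adjusted p = 1.31e-11), with LPS by 0.27 and with SeV by 0.20. Over the 22 groups with cGAMP its group means were 70.2 to 117 CPM (median 92.0), and over the 42 groups without it 68.4 to 192.02 CPM (median 119). Psmb6 rose with 6 of the 7 ligands, the most with LPS (0.44, SE 0.04, adjusted p = 5.75e-22) and PAM (0.41), and HMW was the exception (0.07). Its changes with SeV (0.10) and cGAMP (0.13) were 0.03 and -0.01 with library sizes alone. Psmb7 rose with PAM (0.46, SE 0.09, adjusted p = 7.02e-06) and CpGB (0.27). Psme3 fell with cGAMP (-0.27) and rose with CpGB (0.25). Psme4, for the PA200 activator, rose with SeV (0.65, SE 0.11, adjusted p = 7.05e-08), cGAMP (0.51), LPS (0.42) and HMW (0.39); it had 1, 1 and 4 UMIs in the Ctrl libraries and was called with no single ligand. The calls of Psmb5 with SeV, Psmb6 with SeV, cGAMP and CpGB, Psmb7 with CpGB, Psme3 with cGAMP and CpGB and Psme4 with HMW were each lost under at least 1 of the same alternatives.

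In the alpha ring, whose subunits gate the entry of substrates, Psma6 rose with CpGB, PAM and LPS. It was at 111, 49.9 and 134 CPM in Ctrl, 505, 373 and 438 with CpGB, 328, 387 and 456 with PAM and 305, 294 and 246 with LPS, all above Ctrl (log2 fold change 2.08, SE 0.27, adjusted p = 1.06e-11 for CpGB). The call with LPS (1.46) was lost at equal depth (0.77, adjusted p = 0.115). With SeV it was at 57.3, 130.3 and 84.4 CPM and with cGAMP at 101, 105 and 129, within or near the Ctrl range. On addition, CpGB raised it by 0.78, PAM by 0.71 and LPS by 0.59, whereas cGAMP lowered it by 0.34 (adjusted p = 1.31e-10) and SeV by 0.15 (adjusted p = 0.00676). The call with SeV was lost with no filter (adjusted p = 0.0724) and without replicate 1 or 3 of all groups (adjusted p = 0.0989 and 0.23). Psma6 and Psmb9 therefore changed in opposite directions with cGAMP (-0.34 and 0.61). Psma1 fell with cGAMP (by 0.57, adjusted p = 4.03e-14) and LPS (by 0.30), and was lower than Ctrl in 19 of 63 conditions. That count was 1 without the third Ctrl library, which had the highest Psma1 level of the 3 (152, 137 and 192.03 CPM).

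Psma5 and Psma4, also of the alpha ring, were higher than Ctrl in 61 and 52 of 63 conditions, counts within the range of the inducible subunits. Their Ctrl values rest on few UMIs. Psma5 had 1, 8 and 3 UMIs in the 3 Ctrl libraries, or 13.9, 99.8 and 28.8 CPM, against 253, 199.5 and 210.3 CPM with LPS. Its calls with PAM, Zymosan and cGAMP alone were lost without Ctrl replicate 1 or 3 (adjusted p from 0.0742 to 0.225). Without Ctrl replicate 2 its median log2 fold change over the 63 conditions was 2.95, against 1.87 with all 3 and 1.54 without replicate 1. Psma4 was at 111, 62.4 and 115 CPM in Ctrl and 258, 291 and 220.4 with SeV, and its count of 52 became 35 without Ctrl replicate 2. Additions, which use Ctrl in 1 of 22 backgrounds, gave smaller changes for both. Psma5 rose by 0.37 with LPS and 0.28 with SeV, although the change with LPS was 0.03 (adjusted p = 0.819) at equal depth, and Psma4 rose with LPS and no other ligand (0.20, and 0.06 with library sizes alone). Psma3 rose with LPS by 0.38 (SE 0.04, adjusted p = 9.26e-15), in 21 of 22 backgrounds.

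In the 19S cap, Zymosan gave the clearest change. Psmd8, for a lid subunit, rose on its addition by 0.90 (SE 0.05, adjusted p = 7.61e-46). All 22 backgrounds went up, and in each of them the 3 libraries with Zymosan lay above the 3 without it. With Zymosan alone it was at 276, 346 and 299 CPM, against 235, 149.7 and 163 in Ctrl (log2 fold change 0.78, SE 0.27, adjusted p = 0.0496); this call was lost without Ctrl replicate 2 or 3 or Zymosan replicate 2 or 3 (adjusted p from 0.0659 to 0.187). cGAMP raised it by 0.39. Psmd11, another lid subunit, also rose with Zymosan (0.64, SE 0.08, adjusted p = 2.06e-12, 21 of 22 backgrounds), and Psmd10, which encodes the assembly chaperone gankyrin, fell by 0.37 (adjusted p = 0.000919). Of the 18 tested genes of the cap, cGAMP lowered 6 and raised Psmd8 alone, with the largest fall in Psmd1 (by 0.54, adjusted p = 7.66e-12). Over all genes, cGAMP addition lowered 29.7%, a share near that of the cap, and raised 28.2%. SeV lowered the ATPase gene Psmc1 by 0.50 (adjusted p = 8.11e-08). PAM raised 6 of the 18 and lowered 0, with changes up to 0.32 in Psmd11, where 21.2% of all genes rose and 18.7% fell. For the beta subunits without proteolytic activity, 3 of 28 tests were called, 2 higher and 1 lower, against 21.1% higher and 19.2% lower over all genes. They were Psmb4 higher with PAM (0.19, and 0.06 with library sizes alone) and LPS (0.13, and 0.00) and Psmb3 lower with cGAMP (-0.19). The Psmb3 call was lost with no filter (adjusted p = 0.0504) and without replicate 3 of all groups (adjusted p = 0.225).

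Whether the exchange partners shifted against each other was read within each library, as the log2 ratio of the inducible to the constitutive gene, which needs no scaling of the library. The ratio of Psmb8 to Psmb5 rose on addition of LPS by 0.91 (SE 0.07, adjusted p = 3.11e-05) by a stratified permutation test, with 28 tests adjusted together. It rose with cGAMP by 0.78, with SeV by 0.61 and with CpGB by 0.40, each at the smallest p these permutations can give. It was higher in 18 of 22 backgrounds with LPS and with cGAMP, in 16 with SeV and in 14 with CpGB. The ratio of Psmb9 to Psmb6 rose with SeV (0.58, SE 0.10, adjusted p = 3.11e-05 by permutation), cGAMP (0.53) and LPS (0.41). It was higher in 17, 15 and 16 of 22 backgrounds. With LPS, all 3 libraries lay above those without it in 5 backgrounds and below them in 3. It fell with Zymosan by 0.55, lower in 21 of 22 backgrounds, and with PAM by 0.47, lower in 19 of 22. The ratio of Psmb10 to Psmb7 rose with LPS (0.71) and SeV (0.47) and fell with PAM (by 0.56) and Zymosan (by 0.41). It was higher in 15 of 22 backgrounds with LPS and with SeV, and in 5 with PAM and with Zymosan. At equal depth the SeV and cGAMP changes of Psmb9 to Psmb6 and the SeV and Zymosan changes of Psmb10 to Psmb7 no longer passed. With CpGB neither of these 2 ratios passed the test (-0.01 and -0.11), where CpGB raised Psmb6 and Psmb7 as well as Psmb9 and Psmb10.

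For the caps, the ratio of Psme2 to Psme3 rose with LPS (0.81, SE 0.12, adjusted p = 3.11e-05 by permutation), SeV (0.46), cGAMP (0.45) and PAM (0.35). The SeV and cGAMP changes did not pass at equal depth, and the PAM change did not pass without replicate 2 or 3 of all groups. With all libraries, PAM raised the PA28 ratio on addition while 2 of the 3 catalytic ratios fell. In those 2, PAM raised the counterparts Psmb6 (0.41) and Psmb7 (0.46), where Psmb9 (-0.02) and Psmb10 (-0.03) were not called. Against Ctrl, the 3 libraries of a condition all exceeded the 3 Ctrl libraries in 59 of 63 conditions for Psmb8 to Psmb5, 53 for Psme2 to Psme3, 47 for Psmb10 to Psmb7 and 9 for Psmb9 to Psmb6. These 4 counts describe the same 3 Ctrl libraries and were not tested.

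**Figure D4:**
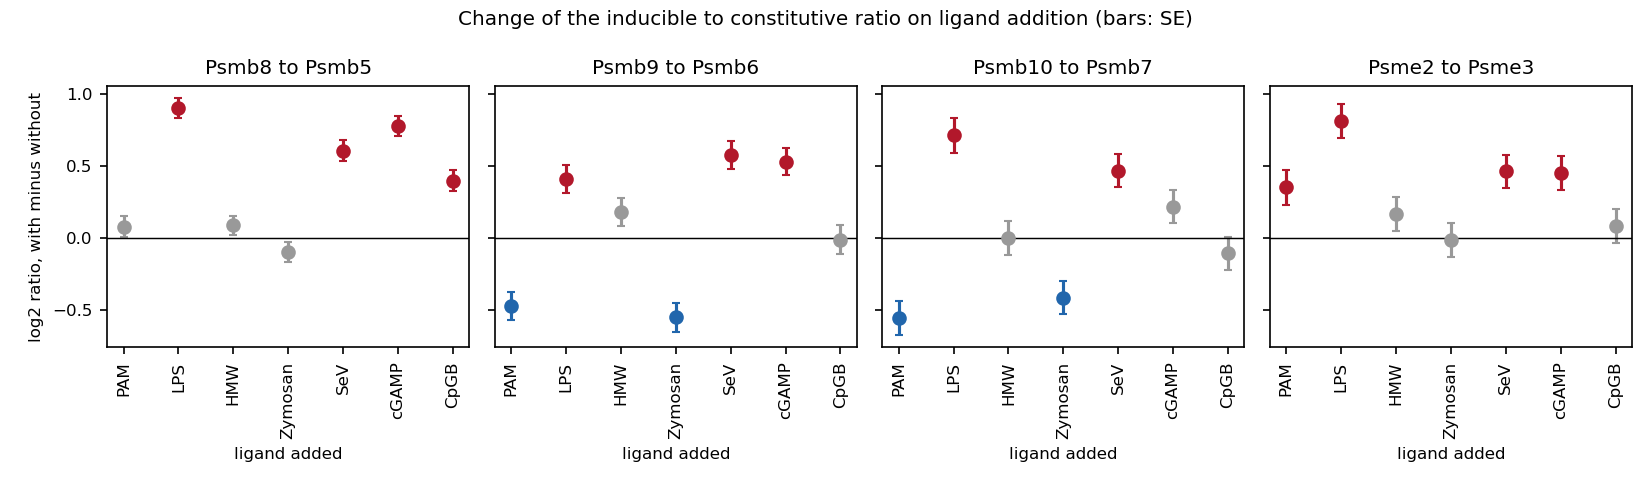
Change of the log2 ratio of an inducible gene to its counterpart on addition of each ligand (vertical axis; mean over 22 backgrounds, bars are the SE from the spread between libraries of a group). Red points passed the permutation test above 0, blue below 0, and grey did not pass; LPS and SeV are red in all 4 panels, and PAM and Zymosan are blue in the panels of Psmb9 and Psmb10.

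The pairs were then compared with the sum of their single ligands. The interaction is the log2 change of the pair against Ctrl minus the log2 changes of both ligands alone, so 0 means that the log2 changes add up. For the inducible subunits it was called below 0 in 37 and above 0 in 0 of 105 tests (also 0 at an unadjusted p under 0.05 with edgeR, and 0 with DESeq2), where 3.5% of all tests were called below and 1.08% above 0. For the other subunits it was called below 0 in 21 and above 0 in 2 of 714. At equal depth in every library the inducible subunits gave 25 and the others 4 below 0. Psme2 had 15 of the 37, Psmb8 8, Psmb10 7, Psme1 4 and Psmb9 3. For Psme2 with PAM + CpGB the interaction was -2.35 (SE 0.25, adjusted p = 5.89e-16): the libraries were at 892, 654 and 789 CPM with PAM, 1029, 939 and 968 with CpGB and 697, 763 and 760.0 with both. The pair libraries lay below all 3 with CpGB alone and within the range of PAM alone. For Psmb8 with LPS + cGAMP it was -1.78 (SE 0.28, adjusted p = 6.37e-08), with 525, 477 and 555 CPM in the pair against 596, 615 and 577 with LPS and 495, 339 and 387 with cGAMP. For Psmb10 with LPS + SeV it was -1.61 (SE 0.30, adjusted p = 7.97e-06), and the pair reached 796, 648 and 725 CPM, a range that overlapped that of LPS alone (588, 615 and 702).

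The called interactions of Psmb8 were all 6 pairs among LPS, SeV, cGAMP and CpGB, and PAM with LPS and with CpGB. Those of Psmb10 were the same 6 pairs and PAM + CpGB. Psmb9 had them for LPS with SeV, cGAMP or CpGB, and Psme1 for these 3 and SeV + CpGB. Ctrl enters all 21 interactions of a gene, so they share its error. A pair exceeded both of its single ligands in 2 of 105 tests (0.805% over all genes). Psmb8 was at 337, 452 and 310.1 CPM with PAM + HMW, against 243, 191 and 239 with PAM and 183, 247 and 209 with HMW (smaller log2 difference 0.72, adjusted p = 0.00412). Psme2 was at 1138, 1188 and 841 CPM with PAM + SeV, against 892, 654 and 789 and 573, 567 and 474 (smaller log2 difference 0.45, adjusted p = 0.0458). No other subunit exceeded both single ligands in any pair by this test.

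**Figure D5:**
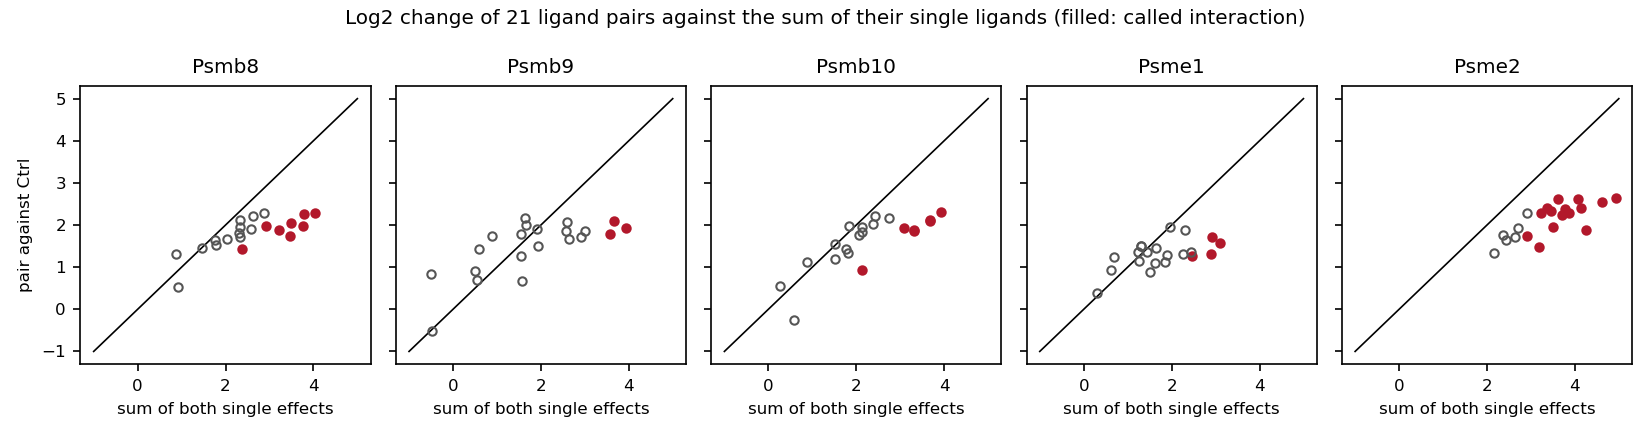
Log2 change of each of the 21 pairs against Ctrl (vertical axis) against the sum of the log2 changes of its single ligands (horizontal axis) for the 5 inducible subunits, with 1 point per pair; the line marks equality and filled points are called interactions. All 37 filled points lie below the line, and the pairs level off as the sum grows.

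Other genes of the pathway were taken from 3 lists. Of 12 genes of class I peptide loading, all tested, LPS addition raised 9 and lowered 3, SeV raised 9 and lowered 1, and cGAMP raised 9 and lowered 3. PAM and CpGB each raised 7 and lowered 0, HMW raised 5 and lowered 1, and Zymosan raised 2. Over all genes, the shares higher and lower were 29.6% and 29.3% with LPS, 28.2% and 29.7% with cGAMP, 20.6% and 16.7% with SeV and 21.2% and 18.7% with PAM. They were 19% and 17.7% with CpGB, 7.94% and 2.1% with HMW and 21.3% and 20.4% with Zymosan. With LPS the list's rises included those of Tap1 (1.09) and Tap2 (0.88), the peptide transporter, of Nlrc5 (0.72), the transactivator of class I genes, and of Tapbp (0.61), the tapasin of the loading complex. The 3 that fell with both LPS and cGAMP were the general endoplasmic reticulum chaperones Calr, Canx and Pdia3 (-0.29, -0.19 and -0.24 with LPS). The median of the list was 0.48 with LPS, against -0.02 over all tested genes.

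Of the genes of interferon signalling, Irf1, Irf7, Irf8, Irf9, Stat2 and Ifnb1 all rose with LPS, SeV and cGAMP. CpGB raised them too, apart from Irf1, which it lowered (-0.11). HMW raised Irf1, Irf7 and Stat2, PAM raised Irf8 and Irf9 and lowered Irf1 (-0.22), and Zymosan raised Irf1 (0.10) and lowered Stat2 (-0.11). With LPS, the transcription factors Irf7, Irf8 and Irf1 rose by 1.20, 1.09 and 0.71, and Ifnb1, the gene of interferon beta, by 0.79. The changes of Ifnb1 with cGAMP (3.29) and SeV (2.60) were larger than with LPS; the differences were not tested. Of 9 genes of proteasome assembly and regulation, 3 were tested. Pomp, the assembly factor of the 20S core, rose with SeV (0.22) and CpGB (0.16) and fell with cGAMP (-0.14). Nfe2l1, the regulator of proteasome genes under proteasome stress, rose with PAM (0.27), and Psmf1 was not called.

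Across the 64 group means of log2 CPM, the inducible subunits were alike, with Pearson's r of 0.669 to 0.915 (median 0.858) over their 10 pairs. The median was 0.132 over the 561 pairs of other subunits and -0.0838 between the 2 sets. The groups share ligands and scaling, so these values are descriptions without a test. Among all tested genes, the 5 most like Psmb8 by r over the 64 groups were AW112010 (0.944), Bst2 (0.936), Ifitm3 (0.931), Gbp2 (0.930), Ddx58 (0.930). For Psmb9 they were Phf11b (0.941), Irf7 (0.931), Phf11d (0.930), Usp18 (0.929), Trafd1 (0.923), and for Psmb10 Ms4a4c (0.952), Mx1 (0.949), AW112010 (0.949), Nod1 (0.935), Phf11b (0.933). For Psme1 they were Ifitm3 (0.923), Gbp3 (0.910), H2-K1 (0.907), Nmi (0.906), Gbp5 (0.904). For Psme2 they were Slco3a1 (0.937), Cfb (0.935), Ms4a6d (0.914), Jak2 (0.906), Car13 (0.902). None of its 5 was among the 5 of another inducible subunit. The other lists also shared little: AW112010 (Psmb8 and Psmb10), Ifitm3 (Psmb8 and Psme1) and Phf11b (Psmb9 and Psmb10).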

How the data were processed

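RNA of all 192 libraries was measured by unique molecular identifiers (UMIs), and the authors deposited the UMI counts of each gene as 1 table of whole numbers. The submitters' processing notes name BWA 0.7.15 and mm10, and filters, strand and annotation are not given in the sources used here. Per the labels' protocols, cDNA was made by template switching and pooled before amplification. Total counts ran from 46564 to 610234 (median 171616.5), and Ctrl, at 61823 to 89530, had the lowest mean total of the 64 groups, which limits the precision of every comparison with it.

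All 192 libraries entered 1 fit of edgeR 4.0.16 (R 4.3.3; quasi-likelihood test, TMM factors, 1 coefficient per group, 128 residual degrees of freedom). filterByExpr kept 4720 genes with 95.7% of all UMIs, and p-values were adjusted by Benjamini-Hochberg over these genes within each contrast. A call is an adjusted p under 0.05. Tests were checked on simulated data. Ratios used log2 of counts plus 0.5 and a two-sided permutation test with 100000 resamples within backgrounds (numpy 2.4.6), adjusted over 28 tests. No 2 libraries of a group agreed within sampling noise (chi-square per degree of freedom at least 1.13). Libraries with the same replicate number in different groups did not deviate together (mean correlation 0.0083), so the numbers were not taken to pair libraries.

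Alternatives were RLE factors, library size alone, no filter, DESeq2 1.42.0, a fold threshold, thinning to 46564 counts, a replicate block, left-out libraries, a fit of each ligand with Ctrl alone and additions without the Ctrl background. Values were named for the 5 inducible subunits, their 4 counterparts, the largest called rise and fall of another member per ligand addition, and up to 4 genes of each related list. The members and lists were chosen with earlier results of these data known. Psma1, Psma3, Psma4, Psma5, Psmb3, Psmb4, Psmc4, Psmd10 and Psmd11, some pathway genes and the ligand split were named after their values were seen. A gene of the interferon signalling list is not reported here.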

Additional observations from a re-analysis of the deposited data

Results flagged for a closer look

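For 11 combinations of a subunit and a pair, the change with 2 ligands together differed from the sum of their changes alone, by edgeR's quasi-likelihood test of the interaction with Benjamini-Hochberg adjustment; the value with the largest size was taken for each subunit and direction, and both are given for Psmc4. Among the inducible subunits these were Psme2 with PAM + CpGB (-2.35, SE 0.25, adjusted p = 5.89e-16), Psmb9 with LPS + cGAMP (-2.02, SE 0.50, adjusted p = 0.00142), Psmb8 with LPS + cGAMP (-1.78, SE 0.28, adjusted p = 6.37e-08), Psmb10 with LPS + SeV (-1.61, SE 0.30, adjusted p = 7.97e-06) and Psme1 with LPS + cGAMP (-1.58, SE 0.37, adjusted p = 0.000565).

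In the alpha ring they were Psma5 with PAM + CpGB (-2.31, SE 0.50, adjusted p = 0.000251), Psma4 with SeV + cGAMP (-2.01, SE 0.37, adjusted p = 5.84e-06) and Psma6 with PAM + CpGB (-1.96, SE 0.33, adjusted p = 8.06e-07). The Ctrl values of Psma5 rest on 1, 8 and 3 UMIs. Over all genes, 3.5% of the tests of the 21 pairs were called below 0 and 1.08% above. The inducible subunits had 37 below and 0 above in 105 tests. The 34 other subunits had 21 below and 2 above in 714 tests, shares no larger than those over all genes. At equal depth, 4 interactions of the 34 other subunits were called below 0, against 21 with all counts. Psma6 was at 439, 422 and 424 CPM with PAM + CpGB, within the range of CpGB alone (505, 373 and 438). Psma4 was at 152, 136 and 169 CPM with SeV + cGAMP, below every library with SeV or cGAMP alone (258, 291 and 220.4, and 193, 280.5 and 227).

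The ATPase genes were Psmc1 and Psmc4. Psmc1 with PAM + LPS had an interaction of -1.95, SE 0.53, adjusted p = 0.00607. It was at 82.0, 53.4 and 39 CPM with both, against 177, 171 and 88.9 with PAM, 89.3, 111 and 112 with LPS and 111, 87.3 and 38.4 in Ctrl. Psmc4 was the one subunit with interactions called above 0, with LPS + cGAMP (1.49, SE 0.53, adjusted p = 0.0446) and SeV + cGAMP (1.59, SE 0.56, adjusted p = 0.0499). It was at 140.0, 152 and 104 CPM with LPS + cGAMP, against 81.9, 72.0 and 58.2 with LPS, 64.2, 52.6 and 61.4 with cGAMP and 97.0, 87.3 and 86.4 in Ctrl. Its Ctrl values rest on 7, 7 and 9 UMIs. Both adjusted p-values are close to the threshold, and neither interaction was called with no filter, at equal depth, with DESeq2 or without replicate 1 or 2 of all groups.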

How the results depend on the processing

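The counts of calls of the inducible subunits stayed within 1.5 times of those above under RLE factors, library sizes alone, no filter, thinning and DESeq2, except that 5 additions were lower with library sizes alone. With a fold threshold of 2, 0 inducible and 0 other additions were called in either direction. Counts of the 34 other subunits moved more. Additions gave 26 higher and 59 lower with library sizes alone, 12 higher when thinned, 35 higher with DESeq2 and 14 lower with no filter. Single ligands gave 8 higher and 0 lower when thinned, 2 lower with RLE factors, 3 with library sizes alone and 0 with no filter. The 63 conditions gave 160 higher and 126 lower with library sizes alone, 87 higher when thinned, 180 higher with the fold threshold, and 63, 51 and 3 lower with RLE factors, DESeq2 and no filter. Interactions called above 0 were 0 with no filter, thinning or DESeq2, and those called below 0 were 4 when thinned. Thinning leaves fewer counts, and the cause of these changes was not tested. The replicate block changed no count by over 1.5 times (27 higher and 4 lower additions of inducible subunits) and, of the calls of named members, only that of Psme2 with Zymosan added (-0.069, adjusted p = 0.0484).

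Leaving out 1 replicate of all groups, or 1 Ctrl or ligand library where single ligands or the 63 conditions were tested, gave ranges. For inducible subunits they were 23 to 26 higher additions, 19 to 24 higher with single ligands, 267 to 290 in the 63 conditions and 26 to 33 interactions below 0. For the others they were 29 to 44 higher additions, 0 to 1 lower with single ligands, 3 to 19 lower in the 63 conditions, and 12 to 16 interactions below and 0 to 1 above 0.

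Log2 changes that turned their sign included 4 called ones (Psmb8 with PAM added, Psmb6 with cGAMP added, Psma3 with SeV added and Psmd8 with LPS added). With library sizes alone the values that turned were Psmb8 with PAM added -0.035, Psmb6 with cGAMP added -0.0076, Psme1 with PAM alone -0.0051, Psme1 with Zymosan alone -0.023. With no filter the values that turned were Psmb9 with PAM added 0.0063, Psmb10 with Zymosan alone 0.16. When thinned the values that turned were Psmb8 with PAM added -0.011, Psma3 with SeV added -0.0056, Psmd8 with LPS added -0.049, Psmb8 with Zymosan alone -0.0029, Psmb10 with Zymosan alone 0.066, Psme1 with PAM alone -0.075, Psme1 with HMW alone -0.026. With RLE factors the values that turned were Psme1 with Zymosan alone -0.017. With DESeq2 the values that turned were Psme1 with Zymosan alone -0.015. Without replicate 1, 2 or 3 of all groups, the ranges of those that turned were -0.21 to 0.069 (Psmb9 with PAM added), -0.098 to 0.00013 (Psmb10 with PAM added), -0.059 to 0.020 (Psme1 with Zymosan added), -0.12 to 0.12 (Psmb10 with Zymosan alone), -0.13 to 0.39 (Psme1 with Zymosan alone), -0.23 to 0.67 (Psmb8 with Zymosan alone), -0.35 to 0.80 (Psmb9 with HMW alone), -0.30 to 0.96 (Psmb9 with PAM alone).

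For the subunit ratios, thinning ended the call of Psmb9 to Psmb6 with SeV (0.38), Psmb9 to Psmb6 with cGAMP (0.35), Psmb10 to Psmb7 with Zymosan (-0.26), Psmb10 to Psmb7 with SeV (0.16), Psme2 to Psme3 with SeV (0.45), Psme2 to Psme3 with cGAMP (0.11), and turned the sign of Psmb8 to Psmb5 with Zymosan (0.023), Psmb10 to Psmb7 with HMW (-0.23), Psme2 to Psme3 with Zymosan (0.13), none of which had been called. With 2 added to each count, Psme2 to Psme3 with HMW passed (0.22), and without the Ctrl background Psmb10 to Psmb7 with HMW was -0.060. Without replicate 1, 2 or 3, the ranges of the ratios that turned or lost their call were -0.11 to 0.064 (Psmb9 to Psmb6 with CpGB), -0.090 to 0.11 (Psmb10 to Psmb7 with HMW), 0.26 to 0.50 (Psme2 to Psme3 with PAM), -0.060 to 0.036 (Psme2 to Psme3 with Zymosan), 0.36 to 0.58 (Psmb10 to Psmb7 with SeV), -0.17 to 0.29 (Psme2 to Psme3 with CpGB). The replicate block changed no call of a ratio. Differences between single ligands and the test of a pair against both of its ligands were computed under 1 setting.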
